A study of Homo sapiens with 6 samples.

Results

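Long noncoding RNA (lncRNA) promoters that lie apart from the promoters of protein-coding genes were examined for H3K27ac in AML cells. Each of the 14387 promoters was a window that reached 1000 bases to either side of a canonical transcript start, for every GENCODE lncRNA gene on chromosomes 1 to 22 and X. Genes that start within 5000 bases of a protein-coding start were left out, because a peak there could belong to either gene. These windows were 14387 of the 38726 lncRNA and protein-coding start windows, and 13729 separate stretches remained after overlapping windows were joined. The rule used gene positions alone and no H3K27ac value.

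H3K27ac was profiled by CUT&Tag, in which an antibody brings the Tn5 transposase to the modified histone, in the human AML lines Kasumi-1 and MV4-11. Kasumi-1 carries a RUNX1::RUNX1T1 fusion and MV4-11 a KMT2A fusion. Cells of each line stably expressed, from a lentiviral vector under puromycin selection, either a control short hairpin RNA (NC, which the labels call untreated) or a hairpin against ANP32B (sh-ANP32B), a histone-binding nuclear phosphoprotein. Which of the study's hairpins was used for CUT&Tag is not given in the sources used here. Of the 6 samples, 4 were H3K27ac libraries with 1 peak list each, called on merged replicates, and the 2 IgG samples, 1 per line, are not analysed here. With 1 list per group no difference has a replicate check, and the depth is unknown because the lists hold peak positions only. The knockdown itself cannot be read from a peak list. Values of all 4 libraries are given with Kasumi-1 first, then MV4-11, and NC before sh-ANP32B within each line.

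Acetylation of lysine 27 of histone H3 marks active promoters and enhancers, and its loss generally accompanies a fall in transcription. lncRNA genes are transcribed by RNA polymerase II like coding genes, but most are expressed at low levels and in few cell types. Some of their promoters are rich in CpG dinucleotides, as most coding promoters are, and others resemble enhancers. Several lncRNAs serve as hosts, whose introns or exons are processed into microRNAs (miRNAs) or into small nucleolar RNAs, the guides of ribosomal RNA modification.

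Promoter sequences, 250 bases before to 50 bases after the start on hg38, are shown for 5 members as examples of common and rare patterns. CpG dinucleotides are in capitals. SNHG29, a small nucleolar RNA host (chr17:16438787-16439086, plus strand, outside coding genes), had a peak in all 4 libraries and 19 CpGs in this stretch. TSPOAP1-AS1 (chr17:58336996-58337295, plus strand, outside coding genes) had peaks of at least 9758 bases in all 4 libraries, but 1 CpG. LINC01962 (chr5:181191341-181191640, minus strand, outside coding genes) had a peak in both Kasumi-1 libraries only and 19 CpGs. DLGAP1-AS2 (chr18:3603678-3603977, plus strand, in an intron of DLGAP1 on the opposite strand) had a peak in both MV4-11 libraries only and 3 CpGs. LINC02989 (chr11:12086641-12086940, plus strand, outside coding genes) had a peak in both sh-ANP32B libraries only, a rare pattern of 3 members, and 2 CpGs. Its MV4-11 peak started at position 12087445, downstream of the printed stretch.
SNHG29: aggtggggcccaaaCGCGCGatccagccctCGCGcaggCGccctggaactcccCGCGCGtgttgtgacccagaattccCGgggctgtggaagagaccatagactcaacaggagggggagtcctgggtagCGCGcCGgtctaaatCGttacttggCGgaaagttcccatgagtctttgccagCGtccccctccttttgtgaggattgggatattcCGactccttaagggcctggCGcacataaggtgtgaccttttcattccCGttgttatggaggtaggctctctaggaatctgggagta
TSPOAP1-AS1: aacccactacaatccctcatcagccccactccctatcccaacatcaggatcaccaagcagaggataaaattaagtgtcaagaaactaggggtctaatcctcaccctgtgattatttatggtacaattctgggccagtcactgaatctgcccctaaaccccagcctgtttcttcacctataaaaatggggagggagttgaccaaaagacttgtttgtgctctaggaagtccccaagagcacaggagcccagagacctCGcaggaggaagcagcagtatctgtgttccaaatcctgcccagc
LINC01962: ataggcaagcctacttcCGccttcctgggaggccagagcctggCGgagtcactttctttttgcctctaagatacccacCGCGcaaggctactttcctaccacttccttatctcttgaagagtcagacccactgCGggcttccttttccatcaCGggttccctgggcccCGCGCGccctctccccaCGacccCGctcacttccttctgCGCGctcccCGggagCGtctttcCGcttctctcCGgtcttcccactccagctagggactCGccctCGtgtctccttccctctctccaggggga
DLGAP1-AS2: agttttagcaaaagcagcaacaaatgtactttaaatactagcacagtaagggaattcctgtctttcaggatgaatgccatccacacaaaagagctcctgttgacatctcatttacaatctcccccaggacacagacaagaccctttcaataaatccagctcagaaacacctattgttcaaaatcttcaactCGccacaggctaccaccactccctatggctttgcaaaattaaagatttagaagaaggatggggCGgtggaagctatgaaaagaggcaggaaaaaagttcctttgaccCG
LINC02989: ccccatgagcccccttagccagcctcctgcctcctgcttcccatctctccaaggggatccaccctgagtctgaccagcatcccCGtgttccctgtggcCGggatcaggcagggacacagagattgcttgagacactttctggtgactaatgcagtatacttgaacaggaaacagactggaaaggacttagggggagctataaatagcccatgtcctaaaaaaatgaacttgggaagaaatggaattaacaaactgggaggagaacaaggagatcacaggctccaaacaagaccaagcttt

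The miRNAs made from the host transcripts are shown for the hosts whose H3K27ac values are described further on. Of the 20 miRNA host members with a peak, 18 held annotated miRNAs on their own strand, 56 mature miRNAs with 46 different seeds. The seed, bases 2 to 8 of the mature miRNA that pair with a target, is in capitals. The miR-17 and miR-20a arms of MIR17HG share a seed, as do miR-19a and miR-19b of the same transcript, miR-221 and miR-222 of MIR222HG, and the let-7 members of MIRLET7A1HG and MIRLET7IHG. Sequences are from RefSeq (GRCh38.p14).
hsa-miR-17-5p: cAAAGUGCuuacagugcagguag
hsa-miR-20a-5p: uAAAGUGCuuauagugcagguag
hsa-miR-19a-3p: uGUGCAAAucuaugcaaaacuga
hsa-miR-19b-3p: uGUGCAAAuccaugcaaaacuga
hsa-miR-221-3p: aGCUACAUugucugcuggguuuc
hsa-miR-222-3p: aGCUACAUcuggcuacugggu
hsa-let-7a-5p: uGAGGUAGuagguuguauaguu
hsa-let-7i-5p: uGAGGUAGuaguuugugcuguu
hsa-miR-155-5p: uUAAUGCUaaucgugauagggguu
hsa-miR-223-3p: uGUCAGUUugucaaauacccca
hsa-miR-22-3p: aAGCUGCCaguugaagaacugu
hsa-miR-23a-3p: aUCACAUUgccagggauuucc

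Before the members were read, the lists were set against marker genes and the genome build. Promoter windows of 8 myeloid and leukocyte markers held a peak at 5 genes in each Kasumi-1 library (CD33, CEBPA, CSF3R, ITGAM and SPI1). In MV4-11 they did so at 5 genes in NC (CEBPA, CSF3R, LYZ, PTPRC and SPI1) and at 2 after knockdown (LYZ and SPI1). MPO, a defining enzyme of myeloid granules, had no peak in any library. No T cell, erythroid, epithelial or hepatocyte marker had one. The 4 lists held 22724, 23833, 24491 and 22112 peaks on chromosomes 1 to 22 and X. Median widths were 1045, 980, 815 and 742 bases, and the narrowest peaks had 357, 354, 289 and 275 bases.

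Most lncRNA promoters carried no H3K27ac peak, and the smallest number was marked in MV4-11 after knockdown. A peak (at least 1 base of overlap) was present at 1121 members in Kasumi-1 NC (7.79%, 95% Wilson interval 7.36 to 8.24) and at 1099 after knockdown (7.64%, 7.22 to 8.08). In MV4-11 it was present at 1035 members in NC (7.19%, 6.78 to 7.63) and at 900 in sh-ANP32B (6.26%, 5.87 to 6.66). The MV4-11 sh-ANP32B interval lay below those of the other libraries, while the 2 Kasumi-1 intervals overlapped. All intervals cover counting error within a list only, and windows that overlap share peaks. Protein-coding windows held a peak in 46.4%, 43.9%, 33.9% and 26.7% of cases in the same order. lncRNA windows within 5000 bases of a coding start resembled coding windows, at 51.7%, 48.8%, 37.7% and 31.3%. At the edge of the rule the shares were alike: 15.03% of the 306 lncRNAs that start 4000 to 5000 bases from a coding start had a peak in any library, against 15.9% of the 239 that start 5001 to 6000 bases away.

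**Figure D1:**
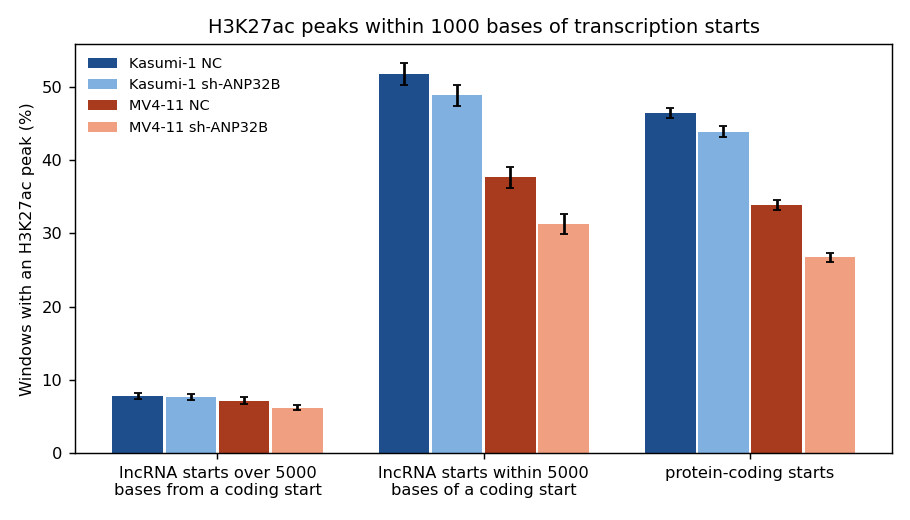
Share of start windows (%) with at least 1 H3K27ac peak in each library, for lncRNA starts over 5000 bases from a coding start, lncRNA starts within 5000 bases, and protein-coding starts. Bars show the share and whiskers the 95% Wilson interval; the lncRNA promoters apart from coding starts sit between 6.26% and 7.79%, and coding promoters between 26.7% and 46.4%.

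An exact permutation test over libraries could not separate the groups at this size. The number of members with a peak was lower by 78.5 on average in sh-ANP32B than in NC over the 2 lines (999.5 against 1078, paired exact permutation test, two-sided p = 0.5, the smallest it can give). Between the lines it was 1110 on average in Kasumi-1 and 967.5 in MV4-11, and the exact permutation test over 2 against 2 libraries gave a two-sided p of 0.333, again the smallest possible.

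Where a lncRNA promoter was marked, its peak was similar in width to that of a coding promoter in Kasumi-1 and wider in MV4-11, but less often covered the start. The median width of the widest peak was 1441, 1469, 1118 and 1056.5 bases at members, against 1469, 1463, 992 and 846 bases at coding windows. The start itself lay under that peak in 70.7%, 69.8%, 61.8% and 58.3% of the members with a peak, against 88.7%, 79.6%, 68.9% and 60.4% of coding windows. At 5000 bases downstream, 10.1% of the members with a peak were covered in Kasumi-1 NC and 5.08% of the coding windows with a peak. Windows covered from end to end numbered 138, 152, 80 and 60. Of all peaks, 4.55%, 4.37%, 4.05% and 3.93% touched a member window. Only 10, 11, 2 and 2 of these peaks also reached a coding window, in the same order.

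**Figure D2:**
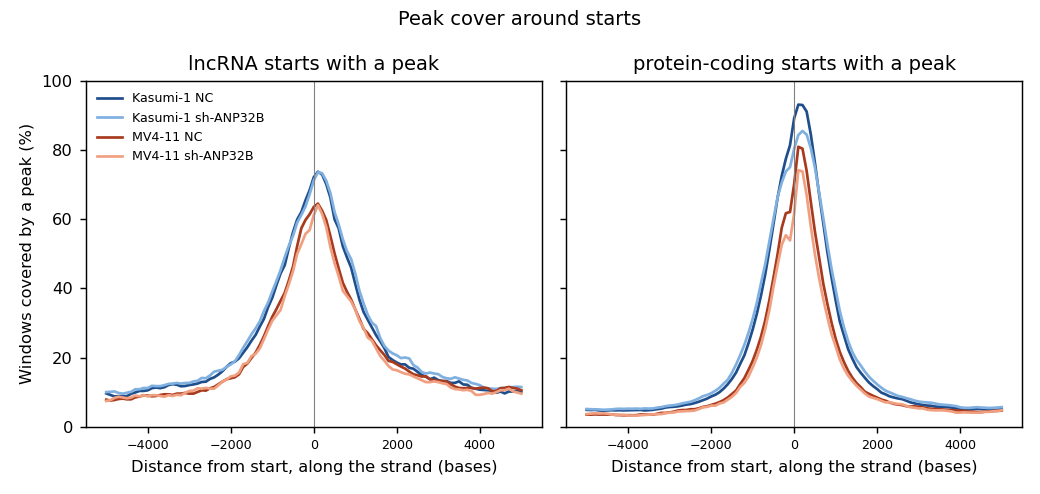
Share of windows with a peak (%) that were covered by a peak at each distance from the start, counted along the direction of transcription in bases, with a line per library. Left, lncRNA members with a peak, right, protein-coding windows with a peak; in Kasumi-1 NC the cover at the start was 72.2% at members and 89.3% at coding windows.

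Peaks seen in MV4-11 alone made up a larger share of the marked promoters at lncRNA genes than at coding genes. A peak in at least 1 library was found at 1432 members (9.95%), and 650 of these (45.4%) had one in all 4 libraries, against 49.9% of coding windows with any peak. Peaks were confined to MV4-11 libraries at 246 members (17.2% of those with any peak, 15.3 to 19.2) and at 2.58% of coding windows with any peak (2.29 to 2.92). Per window, marked or not, the shares were close, 1.71% of members (1.51 to 1.93) and 1.25% of coding windows (1.11 to 1.42). Peaks were confined to Kasumi-1 libraries at 305 members (21.3%, 19.3 to 23.5) and at 26.8% of coding windows with any peak, which were 2.12% of all members and 13.0% of all coding windows. With the stricter demand of both libraries of a line and neither of the other, 117 members (0.813%) were marked in MV4-11 only, where the share over all 38726 windows was 0.581%. By the same demand 217 members (1.51%) were marked in Kasumi-1 only, where it was 6.97%.

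**Figure D3:**
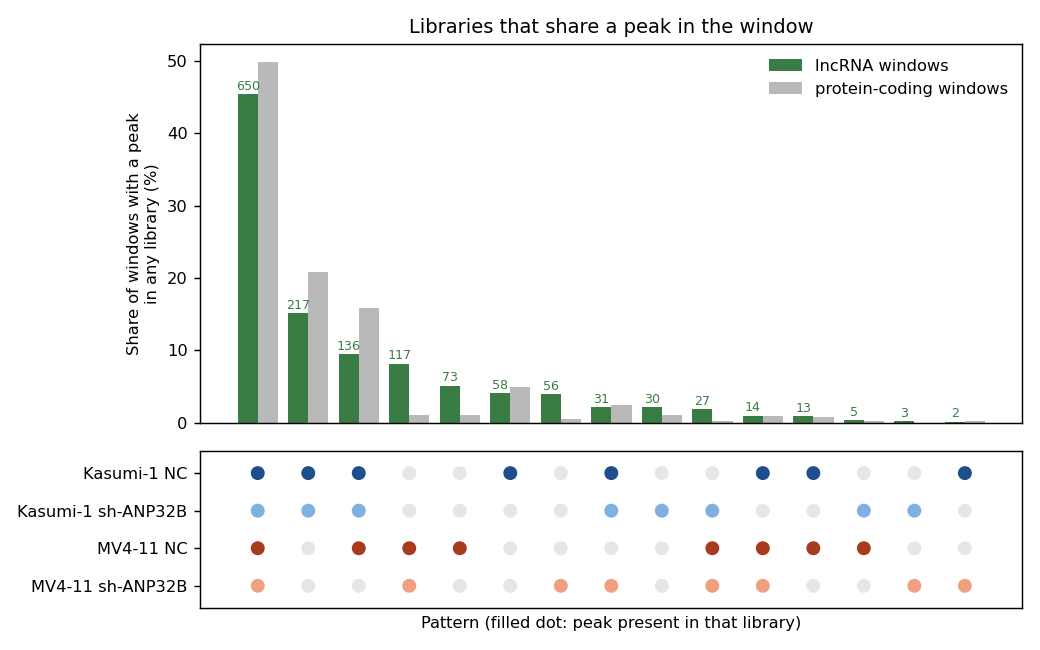
Share (%) of the windows with any peak that had each combination of libraries, for lncRNA members (green, with the number of members above the bar) and protein-coding windows (grey); filled dots below a bar show which libraries had the peak. The 650 members with a peak in all 4 libraries form the tallest green bar, and the 117 with a peak in both MV4-11 libraries only exceed the coding share beside them.

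The promoters marked in one line differed in base composition. Median GC content was 52.4% at the 217 Kasumi-1-only members and 43.0% at the 117 MV4-11-only members, against 44.03% at members with no peak and 53.4% at those with a peak in all 4 libraries. The ratio of observed to expected CpGs was 0.475 and 0.216 in the Kasumi-1-only and MV4-11-only members, against 0.439 in the members marked in all 4 libraries and 0.719 in coding windows marked in all 4. Short sequence motifs were counted on both strands in the 300 bases around each start, each motif on its own and with overlaps allowed. TGTGGT, the core of the RUNX motif, was present in 10.6% of the Kasumi-1-only members and 23.1% of the MV4-11-only members, and in 18.9% of all members. A C/EBP motif, TTGCNNAA, was present in 13.4%, 22.2% and 13.7%. An ETS motif, AGGAAG, was present in 30.9%, 41.0% and 32.3%. The short TATA box TATAAA was present in 6.45%, 17.9% and 18.3%, and among the printed promoters in TSPOAP1-AS1 and LINC02989. The E-box CACGTG went the other way, present in 6.91% of the Kasumi-1-only members, 4.27% of the MV4-11-only members and 4.80% of all members. For the GATA motif AGATAA the shares were 8.76%, 12.0% and 16.2%, lower in both groups than in all members. For the AP-1 motif TGANTCA they were 10.1%, 17.1% and 11.4%. The groups differ in GC content, as the motifs do, and a match describes letters, not a bound factor.

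The share of members with a peak was higher at higher GC content in each library. In the poorest GC quintile of members (below 38.5%), 0.281% had a peak in the Kasumi-1 control library and 1.47% in that of MV4-11, and in the richest (52.7% or more) 21.1% and 17.0%. MV4-11 NC was above Kasumi-1 NC in the 3 poorest quintiles and below it in the 2 richest. Members with a peak started a median of 37312 bases from the nearest coding start, and those without one 71062 bases. The share with a peak in any library was 14.9% at 5001 to 10000 bases, 15.7% at 10001 to 20000, 13.4% at 20001 to 50000, 10.2% at 50001 to 100000, 5.65% at 100001 to 500000 and 2.73% beyond. It was 10.4% for members outside coding genes, 9.41% for those inside a coding gene on the opposite strand and 8.02% for those inside on the same strand. Among members without a symbol, named by Ensembl identifier alone, 8.90% of 10413 had a peak in any library, which was close to the 9.04% of the 2146 LINC genes. The -AS genes reached 12.8% of 976.

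**Figure D4:**
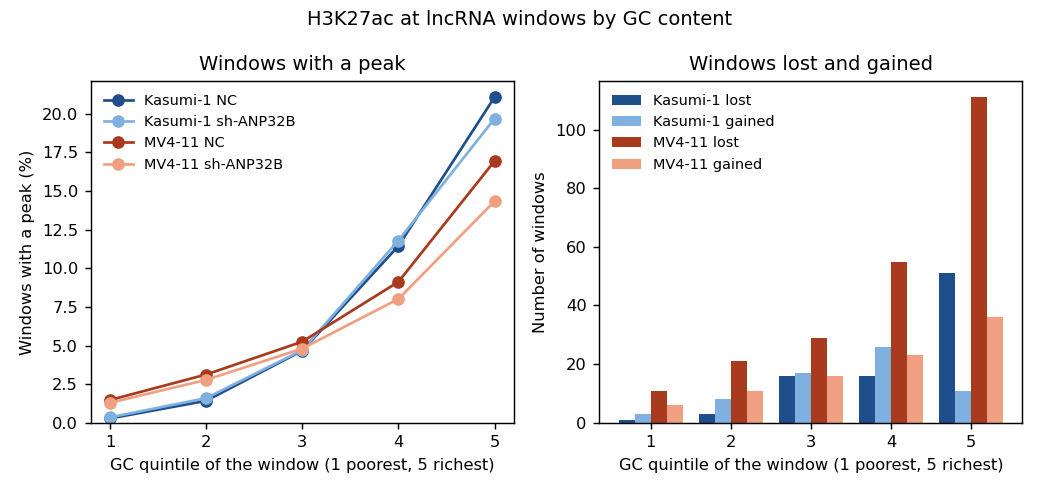
Left, share of lncRNA members (%) with a peak in each library by quintile of window GC content; right, number of members that lost or gained their peak after knockdown in each quintile, by line. The share is highest in the richest quintile in every library, and in Kasumi-1 the richest quintile holds 51 lost and 11 gained members.

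Hosts of small nucleolar RNAs were the most often marked of the 5 lists of lncRNAs. They were read from a list of 31 entries, of which 21 were members and 10 start near a coding gene. Peaks were present at 16 of the 21 in each Kasumi-1 library, and in MV4-11 at 13 in NC and 11 after knockdown. A peak in any library was present at 76.2% of the 21, against 9.95% of all members and 48.4% of coding windows. All 4 libraries had one at 11 hosts, where 4.52% of all members did. SNHG29 had 1686, 1675, 1936 and 1927 bases of its 2001-base window under peaks. SNHG16 had 1673, 1690, 1795 and 1732 bases. Both windows were mostly covered in every library, but the SNHG29 peak was 2967, 1910, 6553 and 3379 bases wide, which differed between the lines and between NC and sh-ANP32B. The SNHG16 peak was 1810, 1885, 1795 and 1732 bases wide.

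Several other hosts had fewer bases under peaks in MV4-11 than in Kasumi-1. SNHG6 had 2001, 2001, 1869 and 831 bases and SNHG15 had 1666, 1701, 868 and 784 bases. SNHG12 had 1298, 1535, 1258 and 748 bases and SNHG32 had 1770, 1628, 635 and 627 bases. SNHG5 kept 1349 bases in both Kasumi-1 libraries, but went from 956 to 20 bases in MV4-11 after knockdown, the edge of a 311-base peak. SNHG1, which hosts several small nucleolar RNAs, had 1454, 1434, 70 and 708 bases, more after knockdown in MV4-11. SNHG8 (1081, 1212, 823 and 1021) and SNHG25 (1369, 1125, 1013 and 1032) also had more bases in MV4-11 sh-ANP32B than in NC. SNHG17 (1055, 1036, 1297 and 953) had its highest value in MV4-11 NC. SNHG7, SNHG21 and SNHG30 were marked in Kasumi-1 only, SNHG7 over all 2001 bases of its window in both libraries.

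Of the 13 hosts with a peak in MV4-11 NC, 2 had none in MV4-11 sh-ANP32B while keeping one in the Kasumi-1 libraries. Over all windows with an MV4-11 NC peak, 24.6% lost it. DANCR, named for opposing differentiation, had 693, 815, 382 and 0 bases, and the nearest peak of the MV4-11 sh-ANP32B list was 299785 bases from its NC peak. SNHG26 had 994, 896, 590 and 0 bases. Both peaks were narrow in MV4-11 NC, and no host lost its peak in Kasumi-1 or gained one in either line. Over all windows with a Kasumi-1 NC peak, 7.16% lost it. Gained windows were 2.13% of all those with a sh-ANP32B peak in Kasumi-1 and 6.4% in MV4-11.

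Among the miRNA hosts, 20 of 71 members had a peak (28.2%, where 9.95% of all members and 48.4% of coding windows did). The 4 libraries held 19, 16, 17 and 16 of them, and 14 had a peak in every library. MIR17HG, the host of the miR-17-92 cluster that is amplified in lymphoma, starts at position 91347697 of chromosome 13 (plus strand, outside coding genes) and had 1683, 1666, 1486 and 1195 bases under peaks. MIR155HG, host of the leukocyte miRNA miR-155, had 1418, 1393, 1419 and 1257 bases. MIR22HG had 1594, 1599, 1775 and 1750 bases. MIR155HG and MIR22HG were thus alike in the 4 libraries, while MIR17HG was lowest in MV4-11 after knockdown.

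MIR223HG differed between the lines. It is the host of miR-223, a miRNA of granulocytes and monocytes, and starts at position 66015414 of chromosome X (plus strand, outside coding genes). Its window had 557 and 651 bases under peaks in the Kasumi-1 libraries and all 2001 bases in both of MV4-11. The peak was 10036 bases wide in MV4-11 NC and 5534 bases wide in MV4-11 sh-ANP32B. MIR3945HG also had wider peaks in MV4-11, at 2630, 3580, 6001 and 6016 bases. MIR3667HG was marked in Kasumi-1 only and MIR3681HG in MV4-11 only.

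The widest peak in the window held a whole hairpin of the host at 4 of the 20 miRNA hosts, and at 2 of them, MIR23AHG and MIRLET7IHG, in all 4 libraries. MIR155HG, MIR22HG, MIR1302-2HG and MIR3667HG could not be among them, because no hairpin was listed within these hosts. For MIR155HG and MIR22HG only the mature miRNAs were listed. The MIR23AHG peak was 11255, 10643, 9104 and 8747 bases wide and in each library held the hairpins of miR-23a, miR-27a and miR-24-2. At MIRLET7IHG the hairpin of let-7i was covered. MIR200CHG held the hairpin of miR-200c in the 2 Kasumi-1 libraries only, under peaks of 13748 and 13738 bases that also touched a coding window. MIR223HG held that of miR-223 in MV4-11 NC only. Outside the host list, the peak at TSPOAP1-AS1 was 9784, 9758, 10767 and 10585 bases wide and in each library held the hairpin of miR-142, a miRNA of blood cells. In the 2 MV4-11 libraries the TSPOAP1-AS1 peak also touched a coding window.

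Let-7 hosts and the miR-222 host changed in different ways. MIRLET7IHG had 1504, 1444, 1427 and 1463 bases. MIRLET7A1HG had 1688, 1110, 1216 and 521 bases, fewer in sh-ANP32B than in NC in both lines. MIR222HG had 447, 555, 520 and 0 bases and was the miRNA host whose peak was absent after knockdown in MV4-11. In Kasumi-1 the peaks of MIR210HG (504 bases in NC), host of the hypoxia-induced miR-210, MIR4432HG (374 bases) and MIR1302-2HG (782 bases) were absent after knockdown. Losses were thus 3 of the 19 miRNA hosts with a peak in Kasumi-1 NC and 1 of the 17 in MV4-11 NC. Over all windows with an NC peak, 7.16% lost it in Kasumi-1 and 24.6% in MV4-11. MIR1302-2HG lies at the end of chromosome 1 in sequence with near-identical copies, so that its reads are uncertain.

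**Figure D5:**
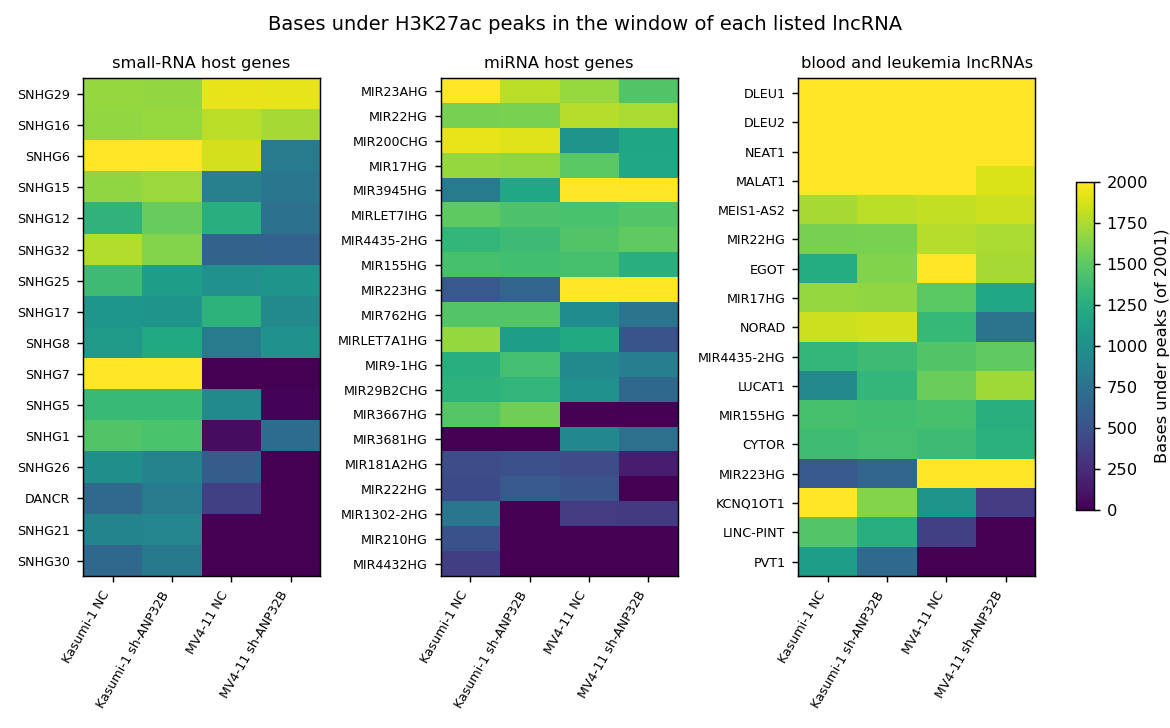
Bases under H3K27ac peaks (colour, 0 to 2001) in the window of each listed lncRNA with a peak in any library, one row per gene and one column per library, for small-RNA hosts, miRNA hosts and lncRNAs known from blood and leukemia. DLEU1, DLEU2 and NEAT1 were covered in full in all 4 libraries, and MIR223HG is covered in full in the MV4-11 libraries only.

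Of 30 members known from blood and leukemia, 17 had a peak in any library and 15 in all 4. Of all members 9.95% and 4.52% did, and 48.4% of coding windows had a peak in any library. DLEU1 and DLEU2, from the region of chromosome 13 deleted in chronic lymphocytic leukemia, were covered over all 2001 bases in each library. So was NEAT1, the scaffold of nuclear paraspeckles, whose peak was 3179, 4189, 11485 and 11054 bases wide. MALAT1, an RNA of nuclear speckles, had the reverse order, with peaks of 7720, 8394, 3439 and 2886 bases. The NEAT1 and MALAT1 peaks thus differed more between the lines than between NC and sh-ANP32B.

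Lower values in sh-ANP32B in MV4-11 were seen at several of these genes. NORAD, which binds Pumilio proteins, had 1848, 1866, 1337 and 769 bases. KCNQ1OT1, the imprinted antisense RNA of the KCNQ1 locus, had 2001, 1632, 1037 and 358 bases, fewer after knockdown in both lines. LINC-PINT, a p53-induced RNA, had 1466, 1255, 381 and 0 bases, and the nearest peak of MV4-11 sh-ANP32B was 1442 bases from its MV4-11 NC peak. LUCAT1, an RNA that restrains interferon responses, went the other way, with 938, 1321, 1547 and 1715 bases. PVT1, the neighbour of MYC, was marked in Kasumi-1 only, with 1117 bases in NC and 684 bases in sh-ANP32B. MEIS1-AS2, in an intron of the leukemia gene MEIS1, had 1734, 1792, 1816 and 1846 bases.

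The last lists held few members, so that their shares rest on small counts. The 4 HOX-cluster members, HAGLROS, HOXA-AS2, HOXB-AS2 and HOXD-AS2, had no peak in any library, but the other 13 entries of that list start near a coding gene, and 6, 6, 5 and 4 of those windows held a peak in the 4 libraries. Of 15 members known from other tissues, 2 had a peak (13.3%, where 9.95% of all members did). Of the other entries of that list of 27, 6 start near a coding gene and 6 were not found. Of the 6 near a coding gene, 3, 3, 2 and 2 held a peak in the 4 libraries. FALEC had 506 and 499 bases in the Kasumi-1 libraries and none in MV4-11. LINC-ROR, known from pluripotent cells, had 392 bases in the NC library of Kasumi-1, 227 bases in that of MV4-11 and none in either sh-ANP32B library.

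Over all members with a symbol, the widest peaks in all 4 libraries stood at TSPOAP1-AS1, MIR23AHG, TMEM105, LINC03081, PPM1F-AS1, LINC01220, LINC00051 and LINC00926. LINC03081 had peaks of 9328, 10526, 10196 and 6402 bases. LINC00926 had peaks of 5970, 5695, 5346 and 5296 bases. LINC01220, which starts 15618 bases from the start of the coding gene FOS, had peaks of 5962, 6310, 5686 and 5606 bases. The MV4-11 sh-ANP32B peak of LINC03081 was the narrowest of its 4, while the peaks of LINC00926 and LINC01220 were alike in all libraries.

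The widest Kasumi-1-only peaks were at LINC01962 (5589 bases in both libraries), LINC02580 (4729 and 4857), MIR3667HG (2785 and 2922), SNHG7 (2712 and 3528), LINC02985 (2711 and 2906) and LINC00623 (2103 and 2108). LINC02580 starts 9360 bases from ZFP36L2, and its peak covered only 623 bases of the window in NC. The widest MV4-11-only peaks were at DLGAP1-AS2 (3963 and 3864 bases), SCAT8 (3024 and 3216), SIMALR (2551 and 2405), LINC01258 (1852 and 1535), LINC01262 (1528 and 1424) and ZFPM2-AS1 (1229 and 1367). DLGAP1-AS2 and SCAT8 were covered over all 2001 bases in both libraries. SIMALR starts 90398 bases from TNFAIP3, an inhibitor of NF-kappaB signalling. The GC content of the MV4-11-only windows named here ran from 35.6% at SIMALR to 44.03% at LINC01258, and that of LINC01962 was 63.5%.

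The effect of ANP32B knockdown was then read as windows that lost or gained their peak, and losses outnumbered gains in both lines. In Kasumi-1, 87 of 1121 members lost their peak (7.76%, 6.33 to 9.48), where 7.16% of all windows with an NC peak did. In the other direction 65 of the 1099 sh-ANP32B members were gained (5.91%, 4.67 to 7.47), where 2.13% of all windows were. In MV4-11, 227 of 1035 members lost their peak (21.9%, 19.5 to 24.6), near the 24.6% of all windows, and 92 of 900 were gained (10.2%, 8.41 to 12.4), above the 6.4% of all windows. Coding windows lost 7.10% and 25.7% and gained 1.78% and 5.84% in Kasumi-1 and MV4-11. The gained share depends on what it is divided by. Of the windows without an NC peak, fewer members than coding windows gained one, 0.490% against 1.46% in Kasumi-1 and 0.689% against 2.36% in MV4-11, where all windows gave 0.978% and 1.66%. Of the members that changed, 57.2% (49.3 to 64.8) in Kasumi-1 and 71.2% (66.0 to 75.9) in MV4-11 were losses, against 80.8% and 84.8% of coding windows. The ratio of members with a peak in sh-ANP32B to NC was 0.980 in Kasumi-1 and 0.870 in MV4-11. With windows of 2500 bases to each side the Kasumi-1 ratio was 1.01, so that its direction is not settled.

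Lost and gained peaks were narrow. Their median widths were 563 and 481 bases in Kasumi-1, where kept peaks had a median of 1562.5 bases in NC, and 579 and 413.5 bases in MV4-11, where kept peaks had 1337 bases. Of peaks under 500 bases, 29.0% were lost in Kasumi-1 and 57.4% in MV4-11, and of those of at least 2000 bases 0.543% and 2.12%. Coding windows of the same width classes lost 43.1% and 62.2% of peaks under 500 bases, and 0.442% and 2.23% of those of at least 2000 bases. As a share of the windows with a sh-ANP32B peak, gains were more frequent at members than at coding windows in each width class, for example 34.7% (26.1 to 44.3) against 16.9% (13.9 to 20.3) of Kasumi-1 sh-ANP32B peaks under 500 bases. With peaks of at least 1000 bases alone, set against every peak of the opposite list, the losses were 18 in Kasumi-1 and 36 in MV4-11, and the gains 15 and 10, so that losses no longer clearly outnumbered gains in Kasumi-1.

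A window can also lose its peak because the edge of a peak moves out of it. In Kasumi-1, 11 of the 87 lost members had an NC peak that still overlapped a sh-ANP32B peak outside the window, as did 23 of the 227 in MV4-11. The share was 12.6% in Kasumi-1 and 10.1% in MV4-11, against 3.34% and 2.64% of the lost coding windows. Without them 76 members were lost and 54 gained in Kasumi-1, and 204 lost and 81 gained in MV4-11. Only the widest peak in each window was examined for overlap.

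Kept peaks of members were nearly unchanged in width in Kasumi-1 and narrower in MV4-11 after knockdown. The median change was 22.5 bases over 1034 members in Kasumi-1 (quartiles -78.5 and 142) and -130.5 bases over 808 members in MV4-11 (quartiles -431.75 and 104.5). In MV4-11, 64.5% of kept peaks (61.1 to 67.7) were narrower after knockdown, against 76.5% (75.3 to 77.7) at coding windows, where the median change was -206 bases. In Kasumi-1, 42.3% of the kept peaks at members and 48.4% at coding windows were narrower. Over the whole MV4-11 lists the median width was 742 bases in sh-ANP32B and 815 bases in NC, and the part of this shift in the members' values was not tested.

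By GC content, the losses and gains of Kasumi-1 were unequally spread. In the richest quintile 51 of 607 members were lost (8.40%, 6.45 to 10.9) and 11 of 567 gained (1.94%, 1.09 to 3.44), while in the fourth 16 were lost and 26 gained. Median GC was 54.8% in lost and 47.7% in gained members of Kasumi-1, and 52.5% and 50.1% in MV4-11. The ratio of sh-ANP32B to NC members fell from 1.25 in the poorest quintile (10 against 8 members) to 0.934 in the richest in Kasumi-1, and lay between 0.846 and 0.914 in MV4-11.

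Few members lost a peak in both lines or gained one in both. Of 813 members with a peak in both NC libraries, 13 lost it in both lines (1.60%, where 1.22% of all such windows did). These 13 lay in 11 separate stretches after overlapping windows were joined. Of 711 with a peak in both sh-ANP32B libraries, 3 had gained it in both (0.422%, where 0.0703% of all such windows had). At ENSG00000287454 in Kasumi-1 and ENSG00000270184 in MV4-11, the gained peak overlapped an NC peak outside the window. At ENSG00000285881 the lost peak likewise overlapped a sh-ANP32B peak in both lines. The one lost member with a gene symbol was LINC-ROR and the one gained was LINC02989. The sh-ANP32B peaks of LINC02989 were 554 bases wide in Kasumi-1 and 340 bases in MV4-11. The NC peaks nearest to these were 72253 and 71169 bases away. At both genes the peaks of the 2 lines did not overlap, so that different stretches of the window changed. The LINC02989 peak ended at position 12087371 in Kasumi-1 and started at 12087445 in MV4-11. The NC peak of LINC-ROR ended at 57072393 in Kasumi-1 and started at 57072893 in MV4-11. In the opposite pattern, 2 members were lost in Kasumi-1 and gained in MV4-11, and 5 the reverse.

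Several of the widest lost peaks at members with a symbol still overlapped a sh-ANP32B peak outside the window. LINC-ROR in MV4-11 had only 227 bases of a 6286-base NC peak in its window, and that peak still overlapped one of sh-ANP32B. Such an overlap was also present at TP73-AS2 (a 6048-base NC peak) in MV4-11. In Kasumi-1 it was present at CEACAM16-AS1 (2857 bases), LINC02021 (1833 bases) and FCGR1BP (1348 bases). The LINC02021 NC peak had 1065 bases in the window and covered the start. LINC01394 had 2 MV4-11 NC peaks in its window, with 760 bases together. The wider one (1372 bases) overlapped a sh-ANP32B peak at the window edge, and the other was not examined for overlap. TNRC6B-DT was lost in Kasumi-1 without such an overlap, with 1271 bases in NC and the nearest sh-ANP32B peak 35731 bases from its peak. FAM215B was lost in MV4-11 with 489 bases in NC and the nearest peak at 801 bases.

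All 4 named gains of Kasumi-1, LINC01532, LINC01943, LINC01303 and EPN2-AS1, were edges of peaks that NC also had. In MV4-11 the gains at LINC01855 (995 bases), LINC00423 (1031 bases), ARHGEF2-AS1 (218 bases) and LINC01973 (104 bases) lay 10663, 4789, 7843 and 5920 bases from the nearest NC peak. LINC01855 and ARHGEF2-AS1 also had peaks in both Kasumi-1 libraries, and LINC00423 and LINC01973 had none.

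Among members that kept a peak, the largest negative differences from NC to sh-ANP32B in Kasumi-1 were at the pseudogenes SDHAP1 (1360 to 357 bases), SDHAP4 (1194 to 399) and NSUN5P1 (1213 to 441). Near-identical copies of these genes exist, which makes the placement of their reads uncertain. Of 200 members whose symbol ends in P or in P and digits, 64 had a peak in any library, where 9.95% of all members did. That form is not limited to pseudogenes, as SCHLAP1 also has it. The largest positive differences were at SOCAR (360 to 1204 bases), LINC00399 (1268 to 2001) and LINC02204 (687 to 1380).

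In MV4-11 the largest negative differences were at LINC02983 (1986 to 77 bases), SLC9A3-AS1 (1874 to 419) and ZNF767P (1848 to 439), all of them in GC-rich windows (63.4%, 73.1% and 60.3%). In Kasumi-1 LINC02983 and SLC9A3-AS1 were covered over all 2001 bases in both libraries, while ZNF767P went from 2001 to 1592 bases. LINC02983 starts 5093 bases from TNRC18, and its Kasumi-1 peaks also reached a coding window. The largest positive differences of MV4-11 were at LINC01655 (314 to 1130 bases), COL4A2-AS2 (109 to 805) and LYPLAL1-AS1 (478 to 1173). LYPLAL1-AS1 also had more bases after knockdown in Kasumi-1, 929 against 380.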

How the data were processed

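The 4 deposited peak lists (H3K27ac CUT&Tag, hg38) give chromosome, start, end and length of each peak; the authors aligned reads, removed duplicates, merged replicates and called peaks at a q-value of 0.01. The study's methods name Bowtie2 and MACS2, while the submitters' processing notes name Bowtie2 2.4.4 and MACS3 3.0. Whether IgG served as the control is not stated. The deposited lists hold no height, score, signal or counts.

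Starts of canonical transcripts came from GENCODE 44. Overlap, GC content and motifs were computed with Python 3.11.15, pandas 2.3.3, numpy 2.4.6 and scipy 1.17.1, after a test on simulated peaks. A member was lost with an NC peak and no sh-ANP32B peak in its window, and gained in reverse. Members were first named by fixed rules: the listed lncRNAs with most bases under peaks, the widest peaks per pattern and the largest changes. These rules took genes with a symbol, 1 per set of overlapping windows. Beyond them, further listed lncRNAs were named after their values were seen, several for differences between lines or after knockdown. Some members without a symbol that changed in both lines were named as well. Members, lists and rules were chosen with earlier results of these data known. The result of 1 further marker list is not reported here. Alternatives changed windows, overlap, peak width and distance to coding starts.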

Additional observations from a re-analysis of the deposited data

Results flagged for a closer look

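The median width change of kept peaks had opposite signs in the 2 lines, and was small in Kasumi-1. The median change from NC to sh-ANP32B at lncRNA promoters was 22.5 bases in Kasumi-1 and -130.5 bases in MV4-11. Whether the lines differ could not be tested with 1 list per group, so the difference was not tested.

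Peaks were also listed on sequences other than chromosomes 1 to 22, X and Y, which entered no comparison. In Kasumi-1 there were 927 in NC and 983 after knockdown, and in MV4-11 854 and 763. All of these sequences are in hg38.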

How the results depend on the processing

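Over 11 alternatives 158 values were recomputed, of which 130 stayed within 1.5 times the main count or the counting interval of the main share and 28 moved. The cause of the moves was not tested. With only peaks of at least 1000 bases, searched for in the whole of the opposite list, 18 members were lost and 15 gained in Kasumi-1, and 36 lost and 10 gained in MV4-11. With windows of 2500 bases to each side, 100 members were gained and 87 lost in Kasumi-1, the reverse order of the main counts. With starts at least 20000 bases from a coding start, 142 of 11476 members were marked in Kasumi-1 only. With the widest 15000 peaks, 1 member known from other tissues had a peak.

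The share of window bases under peaks, 4.49%, 4.46%, 3.52% and 2.93% in the 4 libraries, was 5.21%, 5.10%, 4.22% and 3.49% with windows of 500 bases, and 3.05%, 3.11%, 2.48% and 2.08% with windows of 2500 bases. It was 3.79%, 3.74%, 3.13% and 2.59% at least 20000 bases from a coding start, and 6.37%, 6.30%, 4.72% and 3.98% around every annotated transcript start. The widest 15000 peaks gave 4.07%, 4.04% and 3.08% in the first 3 libraries, and merged windows 4.13% and 4.11% in Kasumi-1. Dividing sh-ANP32B by NC members gave ratios that stayed below 1 in MV4-11, at 0.833 to 0.940, and in Kasumi-1 were 0.976 to 0.997 except for 1.01 with windows of 2500 bases. The count of lost and gained members without moved edges, an alternative added after seeing the data, stayed within 1.5 times of the main one. Libraries were paired by line in the exact permutation test only. No paired analysis by replicate was possible because each group has 1 list made from merged replicates and the labels carry no replicate numbers. Depth is unknown, so that a missing peak in one library may be a peak under the caller's threshold.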
